A study of Mus musculus with 60 samples.

Results

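Organoids grown from the duodenum of mice with a conditional CDK2 knockout were compared after 48 h with 4-hydroxytamoxifen (4-OHT) and after 48 h with the solvent DMSO. Organoids are small cultured structures in which intestinal stem cells and their differentiated offspring grow together. All genes with a value in this comparison were taken, which were 24907 of the 41018 genes listed in the authors' deposited table. The treated group had the labelled genotype HOM CDK2 cKO and received 1 uM 4-OHT for 48 h, in 3 samples. Its control had the same genotype and received DMSO for 48 h, also in 3 samples. WT cKO organoids under the same agents and times, with 3 samples in each of the DMSO and 4-OHT groups, served as the control for 4-OHT itself. Values are also given for CDK2-cKO organoids after 24 h of 1 uM 4-OHT or DMSO, and for CDK2-dTAG organoids, whose tagged CDK2 can be degraded, after 6 or 24 h of 250 nM dTAG-13 or DMSO, again with 3 samples in each group. Cultures of every group were held in Matrigel with a commercial mouse intestinal organoid medium, and their polyA RNA was read by sequencing the 3′ ends of transcripts. Whether the replicates came from separate cultures or separate animals is not stated, and the p-values cover the spread among these samples alone, which may be technical. The labels name neither a Cre recombinase nor its promoter, nor the part of Cdk2 that is removed, for either genotype.

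4-OHT is commonly used to switch on a Cre recombinase fused to an estrogen receptor domain, which then deletes DNA between recognition sites. CDK2 is a kinase that binds cyclins E and A and drives entry into and passage through the DNA synthesis phase, and CDK1 can take over much of its work in many mouse cells. In the duodenal epithelium, stem cells at the crypt base divide under Wnt signals, and their offspring become absorptive enterocytes or secretory goblet, Paneth, enteroendocrine and tuft cells.

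The values are the authors' own comparisons, so sequencing depth is unknown and no value per sample can be given. Each log2 fold change below is that of the treated against the DMSO group and each fold change is linear. The 95% intervals come from a standard error implied by the deposited fold change and p-value. A gene is named well measured where that error had a median of at most 0.5 over the 13 deposited comparisons, which held for 9526 genes. In CDK2-cKO organoids at 48 h the median error of well measured genes was 0.248. At that error a gene needed a log2 fold change of about 1.10 in size to pass FDR p under 0.05. The epithelial markers Epcam, Cdh1, Vil1, Krt8, Krt18, Krt20, Cldn7, Cdx1 and Cdx2 were all well measured, as were the duodenal factors Pdx1 and Gata4. Of the markers of other tissues, 1 fibroblast, 1 immune, 3 endothelial, 1 neural and 3 gastric or pancreatic genes were well measured. A total of 5058 genes in the authors' deposited table shared the log2 fold change -0.06, at a median p of 0.985, and none of them was well measured.

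The Cdk2 transcript of CDK2-cKO organoids treated for 48 h stood at a log2 fold change of -0.64 (95% interval -1.08 to -0.20, unadjusted p = 0.00456, FDR p = 0.996) in the authors' deposited table. This corresponds to a fold change of 0.641, and it was the lowest Cdk2 value of the 13 comparisons. WT-cKO organoids at the same time stood at -0.53 in the authors' deposited table, which leaves a difference of -0.11 between genotypes, with a 95% interval of -0.72 to 0.49. Cdk2 lies on GRCm38 chromosome 10, from 128697939 to 128705031 on the minus strand. A sequencing tag at the 3′ end can stay in place when an exon further upstream is removed, so this transcript does not check the knockout.

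A total of 6 genes in the authors' deposited table passed FDR p under 0.05, which is 0.0241% of the genes tested, and 5 of them fell while 1 rose. No gene passed in WT-cKO organoids at 48 h (0.00%), and none passed in CDK2-cKO organoids at 24 h (0.00%). At an unadjusted p under 0.05 there were 550 genes (2.21%) in CDK2-cKO organoids at 48 h, 455 (1.83%) in WT-cKO organoids at 48 h and 324 (1.30%) in CDK2-cKO organoids at 24 h, where uniform p-values would give about 1245. The 550 genes comprised 223 higher (0.895%) and 327 lower (1.31%). Among well measured genes 127 were higher (1.33%) and 268 were lower (2.81%) at that threshold.

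The called genes with the largest falls both belong to the integrated stress response. In this pathway, kinases that sense amino acid shortage, unfolded protein, viral RNA or heme lack phosphorylate the initiation factor eIF2, general protein synthesis slows, and the transcription factor ATF4 is made in larger amounts. Ddit3, which encodes the ATF4-induced transcription factor CHOP, fell, with a log2 fold change of -1.45 (fold change 0.366, 95% interval -2.01 to -0.89, FDR p = 0.00358) in the authors' deposited table. It lies on GRCm38 chromosome 10, from 127290774 to 127296288, where the annotation holds a second entry of the same symbol. In WT-cKO organoids Ddit3 stood at -1.04 (95% interval -1.61 to -0.47, FDR p = 0.998) in the authors' deposited table, so the intervals of the genotypes overlap. Trib3, a pseudokinase induced by ATF4 and CHOP that feeds back on ATF4, fell, with a log2 fold change of -1.27 (fold change 0.415, 95% interval -1.70 to -0.84, FDR p = 0.000179) in the authors' deposited table. In WT-cKO organoids Trib3 was listed at -0.59 (95% interval -1.03 to -0.16) in the authors' deposited table. Trib3 lies on GRCm38 chromosome 2, from 152337422 to 152344032 on the minus strand.

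The other 4 genes belong to different processes. Erfe encodes erythroferrone, a hormone best known from red cell precursors, which lowers the iron hormone hepcidin. It rose, with a log2 fold change of 3.92 (fold change 15.1, 95% interval 2.42 to 5.41, FDR p = 0.00358) in the authors' deposited table. Its error was wide, with a median of 0.579 over the comparisons, so it is not among the well measured genes. Erfe stood at 0.86 in WT-cKO organoids at 48 h, at -0.29 in CDK2-cKO organoids at 24 h and at 1.34 in CDK2-dTAG organoids after 24 h of dTAG-13, in the authors' deposited table. Maoa, the mitochondrial monoamine oxidase A that breaks down serotonin, fell, with a log2 fold change of -0.91 (95% interval -1.31 to -0.51, FDR p = 0.0408) in the authors' deposited table. Snhg12, a noncoding RNA gene whose introns carry small nucleolar RNAs, fell, with a log2 fold change of -1.08 (95% interval -1.55 to -0.60, FDR p = 0.0408) in the authors' deposited table. Steap1, of a family of membrane proteins that includes metal reductases, fell, with a log2 fold change of -1.08 (95% interval -1.56 to -0.60, FDR p = 0.0420) in the authors' deposited table. In WT-cKO organoids the deposited values were -0.59 for Maoa, -0.18 for Snhg12 and -0.35 for Steap1 in the authors' deposited table. For each of the 5 genes that fell, the value in CDK2-cKO organoids at 48 h was the lowest of the 13 comparisons. For Erfe it was the highest. These genes were chosen by their values in this same comparison, so that order follows in part from the choice. The other comparisons include those of WT-dTAG and CDK5-dTAG organoids, which enter here only through this order and the definition of well measured genes. On GRCm38 Erfe lies on chromosome 1 (91366430 to 91374217), Maoa on chromosome X (16619698 to 16687818), Snhg12 on chromosome 4 (132308623 to 132311024) and Steap1 on chromosome 5 (5736317 to 5749326).

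**Figure D1:**
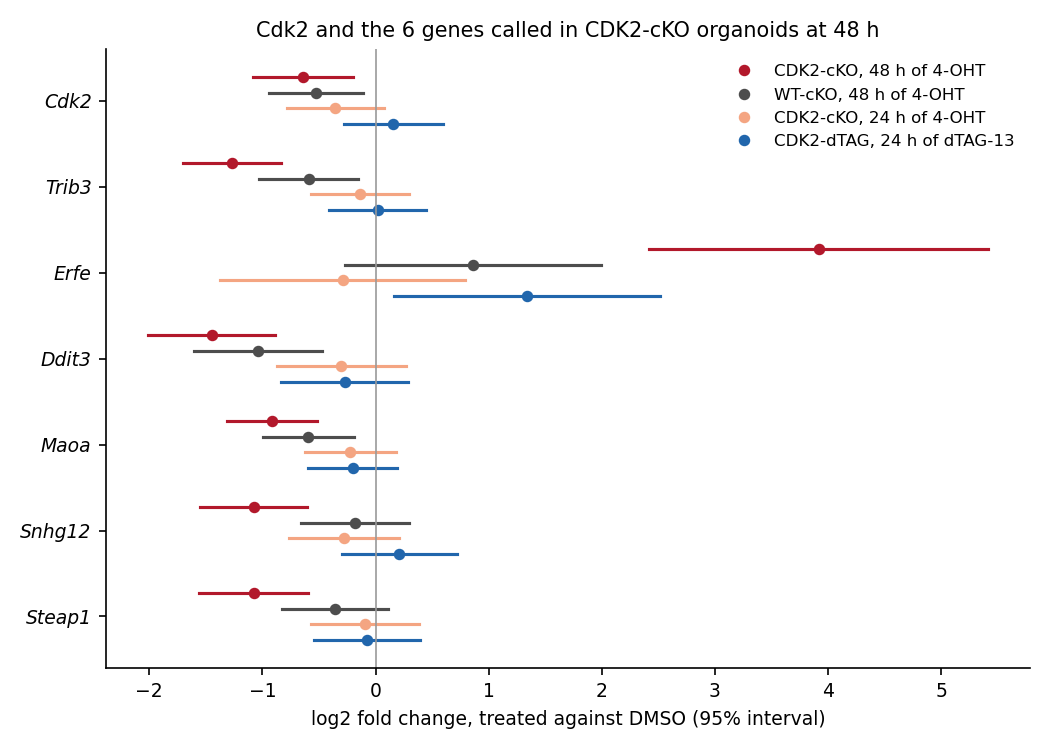
Log2 fold change (x axis, with 95% intervals) of Cdk2 and the 6 genes that passed FDR p under 0.05, for CDK2-cKO organoids given 4-OHT for 48 h and 3 other comparisons. Erfe stands at 3.92 and the 5 genes that fell between -1.45 and -0.91, while Cdk2 stands at -0.64 with the WT-cKO value of -0.53 close beside it.

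The next genes in order of p did not pass. On the lower side the authors' deposited table gave Cyb5r1, of the cytochrome b5 reductase family, -0.63 (FDR p = 0.107). Atf5, a further transcription factor of the stress response, was listed at -0.75 (FDR p = 0.184), Ifrd1 at -0.64 and the sialyltransferase gene St3gal4 at -0.98 in the authors' deposited table. Hsd17b13, an enzyme of lipid droplets, was at -0.62 there, again in the authors' deposited table. On the higher side the well measured genes with the smallest p included Taf2, a subunit of the general transcription factor TFIID (0.90), Fam102b (0.89), the transcription factor gene Tfap4 (0.73), Fam69a (1.13), the zinc finger gene Zfp60 (0.91) and Pla2g4a, a phospholipase that frees arachidonic acid (1.29), in the authors' deposited table. Cdk7, the kinase that activates CDK2 by phosphorylating it, stood at 0.77 with an unadjusted p of 0.00312 in the authors' deposited table. The lysosomal peptidase gene Dpp7 (0.97), the SUMO protease gene Senp3 (1.36) and the galactosyltransferase gene B4galt4 (0.55) completed the 10 smallest p-values on the higher side in the authors' deposited table.

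The integrated stress response was then followed through all 35 genes of its list. In CDK2-cKO organoids at 48 h 31 of 35 were lower, where 62.7% of all genes and 53.1% of well measured genes were lower. Of the 35, 11 had an unadjusted p under 0.05, all of them lower, against 1.31% of all genes and 2.81% of well measured genes lower at that p. The median log2 fold change was -0.35, against -0.06 over all genes and -0.02 over well measured genes. Of the 35 genes 2 passed FDR p under 0.05, where 0.0241% of all genes passed, and 32 were well measured. In the other comparisons the median of the list was -0.19 in WT-cKO organoids at 48 h, -0.06 in CDK2-cKO organoids at 24 h and -0.02 in CDK2-dTAG organoids after 24 h of dTAG-13. In WT-cKO organoids under DMSO it was 0.11 at 48 h against 24 h, a comparison that shares its 48 h DMSO group with the WT-cKO value of -0.19.

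The 7 transcription factors of the response were all lower, 5 of them at an unadjusted p under 0.05, with a median of -0.49. Atf4 itself, the central factor, stood at -0.49 (95% interval -0.79 to -0.19, unadjusted p = 0.00142) in the authors' deposited table, and its WT-cKO value was -0.25. Nupr1, a stress-induced nuclear protein, was listed at -0.89 and Cebpg, a partner of ATF4 on DNA, at -0.36 in the authors' deposited table. Atf3 at -0.45 and Cebpb at -0.03 had unadjusted p-values of 0.171 and 0.939, and both were lower in WT-cKO organoids, at -0.79 and -0.99 in the authors' deposited table. Among the 5 genes of feedback and growth control 4 were lower. Eif4ebp1, which holds back cap-dependent translation, was at -0.41 (unadjusted p = 0.0235), and Ppp1r15a, which brings a phosphatase to eIF2, at -0.46 (unadjusted p = 0.192) in the authors' deposited table. Ddit4, an inhibitor of mTORC1, was at -0.25 and Sesn2, which senses leucine, at 0.00 in the authors' deposited table.

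The 12 enzymes of amino acid and one-carbon metabolism were all lower, with a median of -0.34 against -0.13 in WT-cKO organoids, and 3 had an unadjusted p under 0.05. These were Cth, which makes cysteine, at -0.53, the mitochondrial folate enzyme gene Mthfd2 at -0.43 and asparagine synthetase, Asns, at -0.33 in the authors' deposited table. The serine synthesis genes Psat1, Psph and Phgdh were listed at -0.34, -0.21 and -0.11 in the authors' deposited table. The proline synthesis genes Aldh18a1 and Pycr1 stood at -0.43 and -0.35, and Chac1, which degrades glutathione, at -0.50 in the authors' deposited table. Amino acid transporters stood nearer to 0, with a median of -0.08, 5 of 7 lower and none at an unadjusted p under 0.05. Slc7a5, a carrier of large neutral amino acids, was at 0.20 and the cystine carrier Slc7a11 at -0.02 in the authors' deposited table. Of the secreted proteins and receptors, stanniocalcin 2 (Stc2) was at -0.60 (unadjusted p = 0.00533), Vldlr at -0.41 and Gdf15 at -0.10 in the authors' deposited table. Fgf21 was listed at 3.78 with a standard error of 2.48 in the authors' deposited table and could not be placed.

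**Figure D2:**
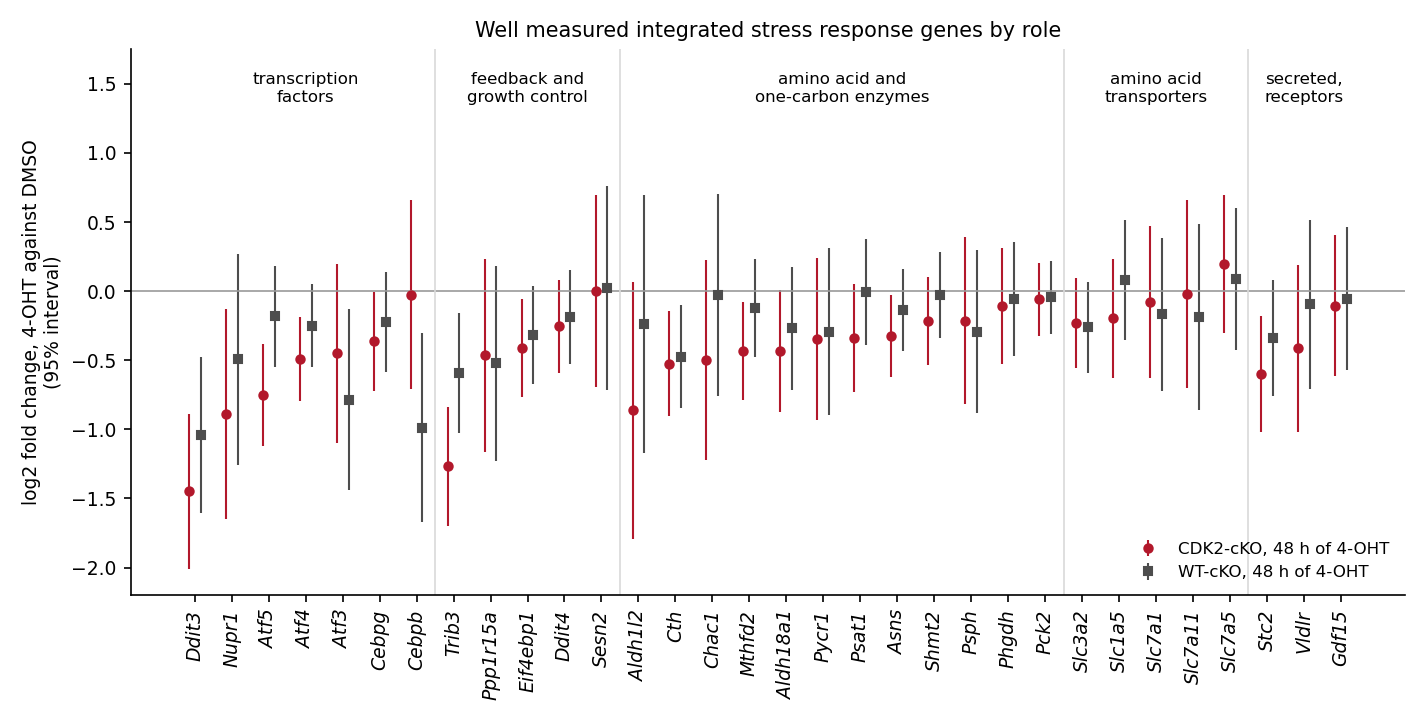
Log2 fold change with 95% interval (y axis) of the 32 well measured integrated stress response genes, grouped by role, in CDK2-cKO (circles) and WT-cKO (squares) organoids after 48 h of 4-OHT. All 7 transcription factors lie below 0 in CDK2-cKO organoids, with Ddit3 lowest at -1.45, and the amino acid transporters lie between -0.23 and 0.20.

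Many genes induced by ATF4 carry a composite element for a C/EBP and an ATF protein near their start. The letters TGATGNAA and TGNTGCAA were searched on both strands in the 250 bases upstream of each start in RefSeq (GRCm38.p6), the second after the Trib3 sequence had been seen; a run TGATGCAA counts for both. The first was present in 3.45% and the second in 2.72% of 32851 upstream windows, and either one in 5.32%. Of the 35 genes 29 were matched, with 36 windows. Either one was present in 12 of these 36 windows, which belong to 12 genes. TGATGNAA, the letters set before the Trib3 sequence was seen, was present in 9 of the 36. A match describes the letters only. Trib3 stood at -1.27, Nupr1 at -0.89, Chac1 at -0.50, Atf3 at -0.45, Vldlr at -0.41 and Pycr1 at -0.35. The other matched genes were Psat1 at -0.34, Asns at -0.33, Pck2 at -0.06, Slc7a11 at -0.02, Sesn2 at 0.00 and Fgf21 at 3.78. These values are from the authors' deposited table. Whether a match goes with a lower value was not tested. The windows of Trib3, which fell, and of Asns and Nupr1, which did not pass but stood at an unadjusted p under 0.05, are shown because each is a member with a low value and a match, which is in capitals. The Trib3 window is chr2:152344061-152344310 on the minus strand, with the match starting 33 bases before the start of the gene, the Asns window chr6:7693210-7693459 on the minus strand, with 23 bases, and the Nupr1 window chr7:126625471-126625720 on the minus strand, with 110 bases and the match on the opposite strand.
Trib3: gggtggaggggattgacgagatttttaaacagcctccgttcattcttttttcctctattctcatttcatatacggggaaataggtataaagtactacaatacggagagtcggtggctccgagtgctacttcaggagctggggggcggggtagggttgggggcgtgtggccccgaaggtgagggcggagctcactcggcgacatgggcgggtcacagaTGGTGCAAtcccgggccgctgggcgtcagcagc
Asns: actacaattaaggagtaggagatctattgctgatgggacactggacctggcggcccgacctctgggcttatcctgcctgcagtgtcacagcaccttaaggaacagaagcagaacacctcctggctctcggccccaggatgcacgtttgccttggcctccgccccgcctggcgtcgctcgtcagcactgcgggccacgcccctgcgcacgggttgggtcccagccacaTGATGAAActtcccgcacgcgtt
Nupr1: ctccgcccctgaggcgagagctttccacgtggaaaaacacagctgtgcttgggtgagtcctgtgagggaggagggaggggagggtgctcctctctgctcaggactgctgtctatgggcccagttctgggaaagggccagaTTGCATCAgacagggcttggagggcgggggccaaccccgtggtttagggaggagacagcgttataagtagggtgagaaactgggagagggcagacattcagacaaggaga

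Groups related to the stress response stood closer to 0. Their counts stand against 62.7% of all genes and 53.1% of well measured genes lower. At an unadjusted p under 0.05, 1.31% and 2.81% were lower. Cytosolic tRNA synthetases, which load amino acids onto tRNA and include known ATF4 targets, were lower in 17 of 20 genes with a median of -0.17, and 2 had an unadjusted p under 0.05. These were Sars at -0.40 and Gars at -0.32 in the authors' deposited table. Endoplasmic reticulum chaperones and other unfolded protein response genes were lower in 20 of 22 genes, but their median was -0.09 and none had an unadjusted p under 0.05. The chaperone BiP, Hspa5, was at -0.25 and the sensor Atf6 at -0.51 in the authors' deposited table. Heat shock genes had a median of 0.05 with 11 of 20 higher, and NRF2 and glutathione genes -0.09 with 19 of 25 lower. Both held 1 gene at an unadjusted p under 0.05, on the lower side. No gene of these 4 lists passed FDR p under 0.05. In WT-cKO organoids at 48 h the median was -0.08 for tRNA synthetases and -0.11 for endoplasmic reticulum chaperones and unfolded protein response genes. It was 0.04 there for heat shock genes and -0.17 for NRF2 and glutathione genes.

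Hypoxia-responsive and glycolytic genes were lower in 29 of 30 cases, with 9 at an unadjusted p under 0.05 and a median of -0.32. Over all genes 62.7% were lower and 1.31% were lower at that p, and over well measured genes 53.1% and 2.81%. Their median was -0.20 in WT-cKO organoids at 48 h and -0.04 in CDK2-cKO organoids at 24 h. The hypoxia-induced gene Ndrg1 stood at -0.69 (unadjusted p = 0.000504), phosphoglycerate kinase Pgk1 at -0.38, lactate dehydrogenase Ldha at -0.39 and glucose phosphate isomerase Gpi1 at -0.42 in the authors' deposited table. No gene of the list passed FDR p under 0.05. In WT-cKO organoids the list had a median of 0.21 under DMSO at 48 h against 24 h, again with the 48 h DMSO group that the value of -0.20 shares.

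Genes of the mature absorptive cell had medians below 0 as well. Enterocyte brush border and transport genes had a median of -0.31, with 36 of 48 lower and 9 at an unadjusted p under 0.05, and none passed FDR p under 0.05. These counts, and those of the other lists in this paragraph, stand against 62.7% of all genes and 53.1% of well measured genes lower. The shares lower at an unadjusted p under 0.05 were 1.31% and 2.81%. Reg1, a secreted lectin, stood at -1.68 (unadjusted p = 0.000944), the bile acid exporter subunit Slc51a at -1.73, and the lipid assembly genes Dgat1 and Mttp at -0.55 and -0.51 in the authors' deposited table. Neither Reg1 nor Slc51a was well measured. In bulk samples, fewer cells of a type and less RNA per cell cannot be told apart. The WT-cKO median of the same genes was -0.46, with 42 of 48 lower, and CDK2-cKO organoids at 24 h stood at -0.17. Xenobiotic enzymes and transporters, which handle drugs and food toxins, had a median of -0.45 with 31 of 32 lower and 9 at an unadjusted p under 0.05, and their WT-cKO median was -0.46. Cyp2c66 was at -0.63, Cyp2c65 at -0.47, the glutathione transferase gene Gstm3 at -0.74 and Cyp2j6 at -0.61 in the authors' deposited table. Genes of fatty acid oxidation and other PPAR targets had a median of -0.15 with 20 of 28 lower, among them Acot2 at -0.59 and the fatty acid carrier Fabp1 at -0.99 in the authors' deposited table. The WT-cKO median of these 28 genes was -0.18 with 21 lower. Cholesterol synthesis genes had a median of -0.12 with 18 of 24 lower, with Fdps, Fdft1 and Cyp51 at -0.33, -0.38 and -0.31 in the authors' deposited table. The WT-cKO median of these 24 genes was also -0.12, with 18 lower.

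Stem cell markers were on the other side of 0. Of 25 markers with a value 22 were higher and the median was 0.37, where 37.3% of all genes and 46.9% of well measured genes were higher. At an unadjusted p under 0.05 there were 6, all higher, against 0.895% of all genes and 1.33% of well measured genes. Sox9, a transcription factor of crypt cells, was at 0.47, Rgmb, a bone morphogenetic protein co-receptor, at 0.79, Cd44 at 0.47 and Cdca7 at 0.37 in the authors' deposited table. Lgr5, the receptor that defines crypt base stem cells and was named after its value was seen, stood at 0.07 (95% interval -0.49 to 0.63) in the authors' deposited table. Medians of the list elsewhere were 0.17 in WT-cKO organoids at 48 h, 0.32 in CDK2-cKO organoids at 24 h and 0.35 in CDK2-dTAG organoids after 24 h of dTAG-13. Wnt targets had a median of 0.38 with 14 of 20 higher and 5 at an unadjusted p under 0.05, and 11 of them were well measured. Myc stood at 0.80 (unadjusted p = 0.0117) and cyclin D1, Ccnd1, at 0.58 (unadjusted p = 0.0145) in the authors' deposited table. In WT-cKO organoids Myc was listed at -0.30 and Ccnd1 at -0.11 in the authors' deposited table, while the list as a whole had a median of 0.11 there with 11 of 20 higher, and a median difference between the genotypes of 0.03. Over the 11 well measured Wnt targets the median was 0.47 in CDK2-cKO organoids and 0.28 in WT-cKO organoids, both at 48 h. For all 20 the median was 0.42 in CDK2-cKO organoids at 24 h and 0.29 in CDK2-dTAG organoids after 24 h of dTAG-13. No stem cell marker or Wnt target passed FDR p under 0.05.

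Markers of most secretory cells were also higher. Counts in this paragraph stand against 37.3% of all genes and 46.9% of well measured genes higher. At an unadjusted p under 0.05, 0.895% of all genes were higher and 1.31% lower. Among well measured genes these shares were 1.33% and 2.81%. Enteroendocrine markers had a median of 0.35 with 24 of 28 higher, and their WT-cKO median was 0.29. At an unadjusted p under 0.05, 4 of them were higher and 1 was lower. The transcription factor gene Insm1 was at 0.80, Gcg, which encodes the glucagon-like peptides, at 0.62, Cacna2d1 at 0.86 and the prohormone convertase gene Pcsk1 at 0.68 in the authors' deposited table. Markers of goblet cells had a median of 0.15 with 21 of 25 higher and none at an unadjusted p under 0.05, and their WT-cKO median was 0.23 with 20 of 25 higher. Muc2, the main mucin, stood at 0.51 in the authors' deposited table. Paneth cell markers had a median of 0.35 with 16 of 20 higher, with a WT-cKO median of 0.07, but 9 were well measured and the only unadjusted p under 0.05 was that of Nupr1, on the lower side. Tuft cell markers had a median of 0.53 with 12 of 18 higher and a WT-cKO median of 0.35, and 1 of them was well measured. Genes of the Notch pathway, which divides absorptive from secretory fates, had a median of -0.09 with 9 of 15 lower, which became 0.26 over the 8 well measured genes. Markers of fibroblasts (median 0.51, 13 with a value), immune cells (-0.60, 12), endothelium (-0.06, 12), nerve and glia (0.35, 12) and stomach or pancreas (-0.06, 18) were nearly all measured with errors too wide to place, and 1 of them, Lyve1 at -0.84 in the authors' deposited table, had an unadjusted p under 0.05. Their part in these results was not tested.

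**Figure D3:**
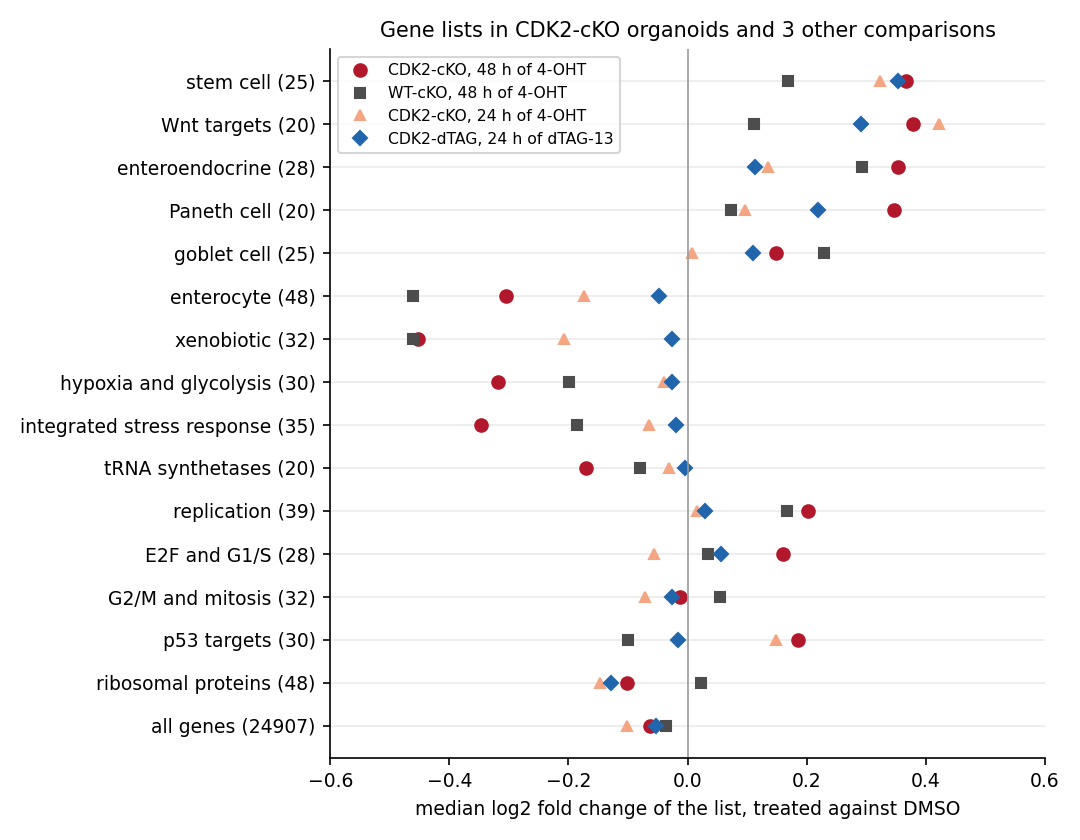
Median log2 fold change (x axis) of 15 gene lists and of all genes, with the number of genes with a value in CDK2-cKO organoids at 48 h in brackets, in that comparison and in 3 others. At 48 h in CDK2-cKO organoids stem cell markers stand at 0.37, enterocyte genes at -0.31, integrated stress response genes at -0.35 and all genes at -0.06.

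Genes of the cell cycle, the process in which CDK2 acts, showed no gene past FDR p under 0.05. Counts here and in the next paragraph stand against 37.3% of all genes higher and 62.7% lower. Among well measured genes 46.9% were higher and 53.1% lower. At an unadjusted p under 0.05, 0.895% of all genes were higher and 1.31% lower. Of 24 cyclins, CDKs and CDK inhibitors 9 were higher and 15 lower with a median of -0.04. At that p 3 of the 24 were higher and 1 was lower. The cyclin E genes Ccne1 and Ccne2, named as partners of CDK2 with their values known, stood at 0.36 and 0.30 and the cyclin A gene Ccna2 at -0.14 in the authors' deposited table. Cdk1 was at -0.08 and the CDK inhibitor genes Cdkn1a and Cdkn1b at -0.23 and -0.03, all likewise named with their values known, and the inhibitor gene Cdkn1c was at 0.54 in the authors' deposited table. E2F factors and G1/S targets had a median of 0.16 with 20 of 28 higher, 2 of them at an unadjusted p under 0.05. Their WT-cKO median was 0.03. Among these genes E2f7, a repressor of the E2F family, was at 1.02 (unadjusted p = 0.0105) and the ribonucleotide reductase gene Rrm1 at 0.31 in the authors' deposited table. Replication licensing and fork genes had a median of 0.20 with 27 of 39 higher, close to 0.17 in WT-cKO organoids. Fen1, Mcm2, Orc1 and Lig1 were listed at 0.43, 0.41, 0.88 and 0.31 in the authors' deposited table, each with an unadjusted p under 0.05. G2/M and mitosis genes had a median of -0.01 with 14 of 32 higher and none at an unadjusted p under 0.05. Their WT-cKO median was 0.05 with 21 of 32 higher. Foxm1, a mitotic transcription factor, was at -0.45 in CDK2-cKO organoids in the authors' deposited table.

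Targets of p53 had a median of 0.19 with 20 of 30 higher, against -0.10 in WT-cKO organoids and 0.15 in CDK2-cKO organoids at 24 h. The only member with an unadjusted p under 0.05 was Ddit4l, an inhibitor of mTORC1, at 1.83 in the authors' deposited table. Ddit4l was not well measured. Apoptosis genes had a median of 0.00 with 13 of 25 higher and none at an unadjusted p under 0.05. MYC targets and ribosome biogenesis genes had a median of 0.07 with 23 of 30 higher. Cytosolic ribosomal proteins were lower in 47 of 48 genes, but by small amounts, with a median of -0.10 and none at an unadjusted p under 0.05. Their median was 0.02 in WT-cKO organoids at 48 h and -0.15 in CDK2-cKO organoids at 24 h. Mitochondrially encoded genes had a median of 0.08 with 13 of 15 higher.

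The response of CDK2-cKO organoids was then set against that of WT-cKO organoids gene by gene. This asks what 4-OHT did beyond its effect in WT-cKO organoids. No difference between the genotypes passed an adjusted p under 0.05 (0.00% of 24905 genes), and 317 had an unadjusted p under 0.05 (1.27%), 145 of them higher and 172 lower in CDK2-cKO organoids. Of the 6 called genes, Erfe differed by 3.05 (95% interval 1.18 to 4.93), Snhg12 by -0.90 (-1.57 to -0.23), Steap1 by -0.72 (-1.39 to -0.05) and Trib3 by -0.68 (-1.29 to -0.07), intervals that exclude 0 before any adjustment over genes. Ddit3 differed by -0.41 (-1.21 to 0.39) and Maoa by -0.32 (-0.88 to 0.25), with intervals that include 0. The 6 genes were chosen by their CDK2-cKO values at 48 h, which enter these differences. The intervals do not allow for that choice. Over the integrated stress response 26 of 35 genes were lower in CDK2-cKO than in WT-cKO organoids, with a median difference of -0.14, where 59.6% of all genes were lower. Hypoxia and glycolysis genes had a median difference of -0.09 with 24 of 30 lower, cytosolic ribosomal proteins -0.11 with 46 of 48 lower, and p53 targets 0.19 with 21 of 30 higher. G2/M and mitosis genes had a median difference of -0.08 with 25 of 32 lower. For enterocyte genes, xenobiotic genes and stem cell markers the median differences were 0.11, 0.05 and 0.05. Whether a list as a whole differed between the genotypes was not tested.

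Among well measured genes, those with the smallest p of the difference had values of opposite sign in the genotypes. The lowest was that of Scamp4, a carrier protein of secretory membranes, at -0.59 with the knockout allele and 0.23 without it in the authors' deposited table. Selenop, the selenium transport protein, stood at -1.53 and 0.54, Tbccd1 at -0.43 and 0.79, Tnip2, an inhibitor of NF-kB signalling, at -0.86 and 0.85, and Moxd1 at -0.65 and 0.31, in the authors' deposited table. On the higher side Plpbp, which binds vitamin B6, was at 0.38 and -0.54, the copper transporter family gene Slc31a2 at 0.48 and -0.9997 and the nuclear import gene Ipo11 at 0.60 and -0.41 in the authors' deposited table. Bbc3, which encodes the apoptosis inducer PUMA, was at 0.46 and -1.04 and Ccm2 at 0.62 and -0.30 in the authors' deposited table. None of these differences passed the adjustment over all genes.

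**Figure D4:**
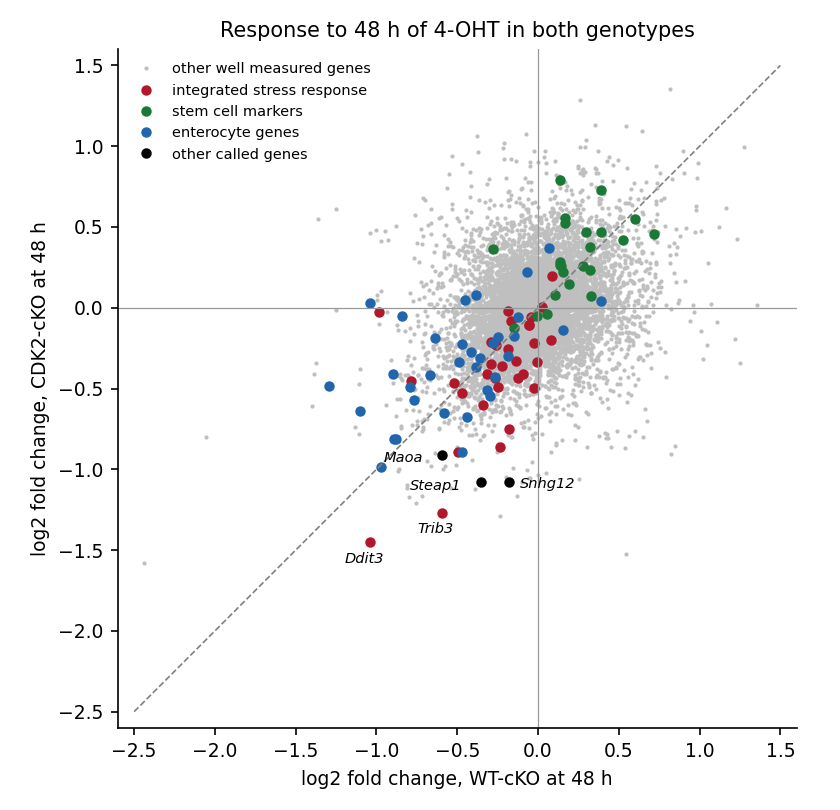
Log2 fold change at 48 h of 4-OHT against DMSO in WT-cKO (x axis) and CDK2-cKO (y axis) organoids for the 9526 well measured genes, with 3 gene lists and the called genes coloured and a dashed line of equal response. Ddit3, Trib3, Maoa, Snhg12 and Steap1 lie below the dashed line, and enterocyte genes lie mostly below 0 on both axes.

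Across the 9526 well measured genes the log2 fold changes of CDK2-cKO and WT-cKO organoids at 48 h had a Pearson correlation of 0.301 and a Spearman correlation of 0.292. These are correlations across genes, which are not independent replicates, and CDK2-cKO organoids at 48 h share no sample with any comparison named here. Of the 395 well measured genes with an unadjusted p under 0.05 in CDK2-cKO organoids, 327 (82.8%) had the same sign in WT-cKO organoids, against 60.7% of all well measured genes. With CDK2-cKO organoids at 24 h the Pearson correlation was 0.219. Of the 395 genes 306 (77.5%) had the same sign, against 60.1% of all well measured genes. With CDK2-dTAG organoids after 24 h of dTAG-13, in which CDK2 protein is the target of degradation, it was 0.154 with 259 genes (65.6%), and after 6 h it was 0.088 with 253 genes (64.1%). With WT-cKO organoids under DMSO at 48 h against 24 h it was -0.112, and 137 genes (34.7%) had the same sign. That last comparison shares its 48 h DMSO group with the WT-cKO response to 4-OHT.

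Between 24 and 48 h of 4-OHT in CDK2-cKO organoids no difference passed an adjusted p under 0.05 (0.00%), and 325 genes had an unadjusted p under 0.05 (1.30%), 166 higher and 159 lower at 48 h. Erfe had the smallest p of this difference, which was 4.21 (95% interval 2.36 to 6.05, adjusted p = 0.200, a normal test on values of the authors' deposited table). Trib3 differed by -1.13 (-1.74 to -0.52), Ddit3 by -1.15 (-1.95 to -0.35) and Steap1 by -0.99 (-1.66 to -0.31), each with an interval that excludes 0 before adjustment. Snhg12 and Maoa were also lower at 48 h than at 24 h, with intervals that exclude 0 before adjustment. Like Erfe, these genes had been called on their values at 48 h, and the intervals do not allow for that choice. At 24 h Trib3, Ddit3, Steap1, Snhg12 and Maoa had been listed at -0.14, -0.30, -0.09, -0.28 and -0.22 in the authors' deposited table.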

How the data were processed

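Duodenal organoids were profiled by sequencing of mRNA 3′ ends (QuantSeq, forward), and the labels place 60 samples in 20 groups of 3. Salmon is named, without a version, per the submitters' processing notes; of the genome build, filters, normalization and test nothing is given in the sources used here. The authors' deposited table holds 13 comparisons and, per the file headers, for each gene a p-value, its FDR and Bonferroni forms, a log2 fold change and the same fold change as a linear ratio. The FDR values were checked to be Benjamini-Hochberg adjusted over all genes with a value. With no values per sample among those analysed, depth is unknown.

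From these values a standard error was derived by dividing the absolute log2 fold change by the z score of its p-value, which reads the test as a Wald-type test; no source states this. A difference of responses was the difference of log2 fold changes of comparisons that share no sample, with independent errors, a two-sided normal p-value and Benjamini-Hochberg adjustment over 24905 genes, and its code was tested on simulated data. Calls were made at an adjusted p under 0.05. Gene lists (41) were described by counts and medians, without a set test. The genes compared, the lists and the naming rule were chosen with earlier results of these data known. Named were Cdk2, all called genes, the 10 smallest p-values each way and the 5 smallest of the difference each way among well measured genes, and up to 4 genes of a list by p; other names are marked, and the stress response list was described by role. GENCODE M21 on GRCm38 gave positions by symbol, and RefSeq gave upstream sequences. Alternatives changed the genes adjusted over, the adjustment, the threshold, the scale of the errors and the centring. Python 3.11.15, pandas 2.3.3 and scipy 1.17.1 were used.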

Additional observations from a re-analysis of the deposited data

How the results depend on the processing

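Of the 6 called genes, Bonferroni adjustment left 3 (Trib3, Erfe and Ddit3). Adjustment over the well measured genes also called 6, of which 5 were shared, with Erfe not tested there and Cyb5r1 added. Adjustment over the larger set of genes whose median error was at most 1 called the same 6 genes, and a threshold of 0.1 called 6. The difference from WT-cKO organoids had 0 calls over all genes, over well measured genes and with errors scaled to a z spread of 1. The difference between 48 and 24 h had 0 calls in the first of these settings and in the second, and 1 call with scaled errors (smallest adjusted p = 0.0128, a normal test on values of the authors' deposited table). Centring on the median of the well measured genes moved the medians of the 35 lists with at least 5 such genes by 0.02 and turned the sign of the G2/M list, from -0.01 to 0.01. Well measured genes alone turned the sign of 2 of the 35, the Notch pathway (-0.09 to 0.26) and the Reg lectins (-0.06 to 0.10). The same setting moved by over 1.5 times the medians of iron handling (-0.06 to -0.27), immediate early (0.08 to 0.03), interferon (0.07 to 0.03), fetal-like (-0.06 to -0.02), region marker (-0.06 to -0.03), snoRNA host (-0.03 to -0.07) and apoptosis genes (0.00 to 0.01), and centring did so for cyclins and CDKs (-0.04 to -0.02), snoRNA hosts (-0.03 to -0.01) and apoptosis genes (0.00 to 0.02). No paired analysis was possible because the table analysed holds comparisons and no values per sample; leaving out replicates was not run for the same reason. The spread between replicates enters only through the deposited p-values.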

Other observations

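Duodenal iron handling genes held 2 of the 6 called genes, Erfe and Steap1, where 0.0241% of all genes were called. The list was chosen with earlier results of these data known. Its other 15 genes with a value stood on both sides of 0, so it had a median of -0.06 with 7 of 17 higher. Beside this list and those that follow, 37.3% of all genes were higher and 62.7% lower. At an unadjusted p under 0.05 these shares were 0.895% and 1.31%. Over the 13 well measured iron genes the median was -0.27 with 4 higher and 9 lower, and in WT-cKO organoids the median was -0.24 over 17 genes and -0.35 over these 13. The iron exporter Slc40a1 was at -0.65 and the ferritin light chain Ftl1 at -0.27 in the authors' deposited table, neither with an unadjusted p under 0.05. Glucocorticoid-responsive genes had a median of -0.16 with 10 of 16 lower. Tsc22d3, a classical target of the glucocorticoid receptor, was at -0.62 (unadjusted p = 0.00601) and the metallothionein Mt2 at -0.38 in the authors' deposited table, with WT-cKO values of -0.52 and -0.42. On the higher side Cdkn1c, a CDK inhibitor gene, was the third member with an unadjusted p under 0.05, at 0.54 in the authors' deposited table. Estrogen-responsive genes, listed because 4-OHT binds the estrogen receptor, had a median of -0.06 with 11 of 16 lower, and Stc2 was the only one with an unadjusted p under 0.05. Immediate early genes had a median of 0.08 with 16 of 29 higher, and EGF ligands and feedback genes 0.06 with 14 of 21 higher. In both of these lists Dusp6, a phosphatase that limits ERK signalling, stood at 0.45 (unadjusted p = 0.0425) in the authors' deposited table. Genes of the interferon response and antigen presentation had a median of 0.07 with 17 of 33 higher, and fetal-like and regeneration genes -0.06 with 16 of 26 lower, with no unadjusted p under 0.05 in either list. Reg lectins and antimicrobial genes had a median of -0.06 with 9 of 15 lower, and Dmbt1, a mucosal scavenger protein, stood at -0.79 in the authors' deposited table. Colon, ileum and duodenum region markers had a median of -0.06 with 9 of 11 lower.

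Of the 17 snoRNA host genes with a value, a list written after Snhg12 had been seen, 8 were higher and 9 lower with a median of -0.03, and Snhg12 was the only one with an unadjusted p under 0.05. Spermatid and sperm transcripts, whose median was 4.95 in WT-cKO organoids after 24 h of 4-OHT, had a median of -0.80 here with 31 of 34 lower and none at an unadjusted p under 0.05, and 1 of them was well measured. The largest deposited fold changes belonged to genes with wide errors. Named for their size alone after it was seen, Zfp97 was listed at 7.81, Thtpa at 6.70 and Sprr2a1 at -7.42 in the authors' deposited table, each with FDR p = 0.996. A log2 fold change over 2 in size was listed for 1725 genes, none of which was well measured, and 34 well measured genes exceeded 1.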
